A study of Homo sapiens with 2 samples.

Results

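Ribosome production was followed here through 60 genes of Hep3B cells, an established human hepatocellular carcinoma line, out of 11511 genes with a value in the deposited RNA-seq table. The genes were chosen by symbol: names that start with NOP, NOL, UTP, RRP or POLR1 followed by a digit or letter, plus 20 named factors such as nucleolin (NCL), nucleophosmin (NPM1), fibrillarin (FBL) and dyskerin (DKC1), with hyphenated symbols left out. One library came from untreated Hep3B cells. The other came from Hep3B cells exposed for 24 h to 25 µM A4368, a compound known here only by that code. The vehicle was not given in the sources used here, and the control is labelled as untreated.

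Ribosomes are assembled in the nucleolus, where RNA polymerase I transcribes a long precursor that is folded, modified, cut and joined to ribosomal proteins. Small nucleolar ribonucleoproteins (snoRNPs) carry guide RNAs that direct methylation and pseudouridylation, a large early assembly called the small subunit processome builds the small subunit, and a separate set of factors builds the large one. Many of these genes are known targets of the transcription factor MYC, and tumour cells, hepatoma cells included, usually run this pathway at a high rate.

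Values were read as FPKM (the header names no unit), fragment counts corrected for transcript length and library size, so levels can be compared between genes. Where a pair of values is given, the untreated library comes first. The depth of the libraries is unknown, and with 1 library per group there are no replicates, so no value carries an error, no p-value was computed, and each difference is one between these libraries. All 10 hepatocyte and hepatoma markers examined had values, between 27.0 and 9183 FPKM in the control, whereas none of 4 endothelial and 5 fibroblast markers did, and 1 of 5 leukocyte markers, CD14, was listed at 2.50 FPKM. In bulk RNA, fewer cells that express a gene and less of its RNA per cell cannot be told apart, and FPKM give a share of the library, not an amount per cell.

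Some promoters of these genes carry CACGTG, the E-box that MYC and MAX are known to bind, and the stretches below are shown because 6 of the 12 genes that were at least 1.2-fold lower with A4368 hold it. RefSeq promoter windows of GRCh38.p14, from 250 bases before to 50 after each annotated start, were found for 50 of the 60 genes. The motif, which reads the same on both strands, was in at least 1 window of 18 of these 50 genes (36.0%), against 8.77% of 27305 genes with a window and 13.0% of 8853 genes of the table with a mean of at least 1 FPKM. Each line gives 30 bases on the gene's own strand, with the motif in capitals. The first 6 genes are those, and the last 2 are the motif-bearing genes that were higher.
UTP14A: accttgggcCACGTGgaaaccaggggccag
GAR1: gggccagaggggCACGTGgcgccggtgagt
NOP2: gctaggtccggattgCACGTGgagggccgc
GNL3: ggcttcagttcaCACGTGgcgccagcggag
UTP4: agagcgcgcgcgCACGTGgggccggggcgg
MRTO4: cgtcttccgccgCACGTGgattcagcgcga
NOL8: gctccgttgggaCACGTGaccagaagttag
IMP4: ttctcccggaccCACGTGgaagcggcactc

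In GRCh38.p14 these stretches lie at chrX:129905914-129905943 (plus strand, UTP14A), chr4:109815781-109815810 (plus, GAR1), chr12:6568242-6568271 (minus, NOP2) and chr3:52686026-52686055 (plus, GNL3). The others lie at chr16:69132621-69132650 (plus, UTP4), chr1:19251807-19251836 (plus, MRTO4), chr9:92325342-92325371 (minus, NOL8) and chr2:130342900-130342929 (plus, IMP4). In 16 of the 18 genes the motif closest to a start began within 20 bases before to 40 bases after it; the exceptions were UTP14A, where it began at position -241, and NOL7, at position -149, counted from the start.

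The 60 genes were expressed above the typical gene, with a median of 27.2 FPKM untreated and 23.3 FPKM treated, against 13.3 and 13.5 FPKM over all 11511 genes. Their means over both libraries ran from 3.76 FPKM for UTP14C to 560 FPKM for NPM1, which alone made up 18.9% of the summed control FPKM of the group. That sum was 3115 FPKM untreated and 2821 FPKM treated, a ratio of 1.104. All 60 passed the filter of a mean of at least 1 FPKM, which kept 11238 genes of the table.

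**Figure D1:**
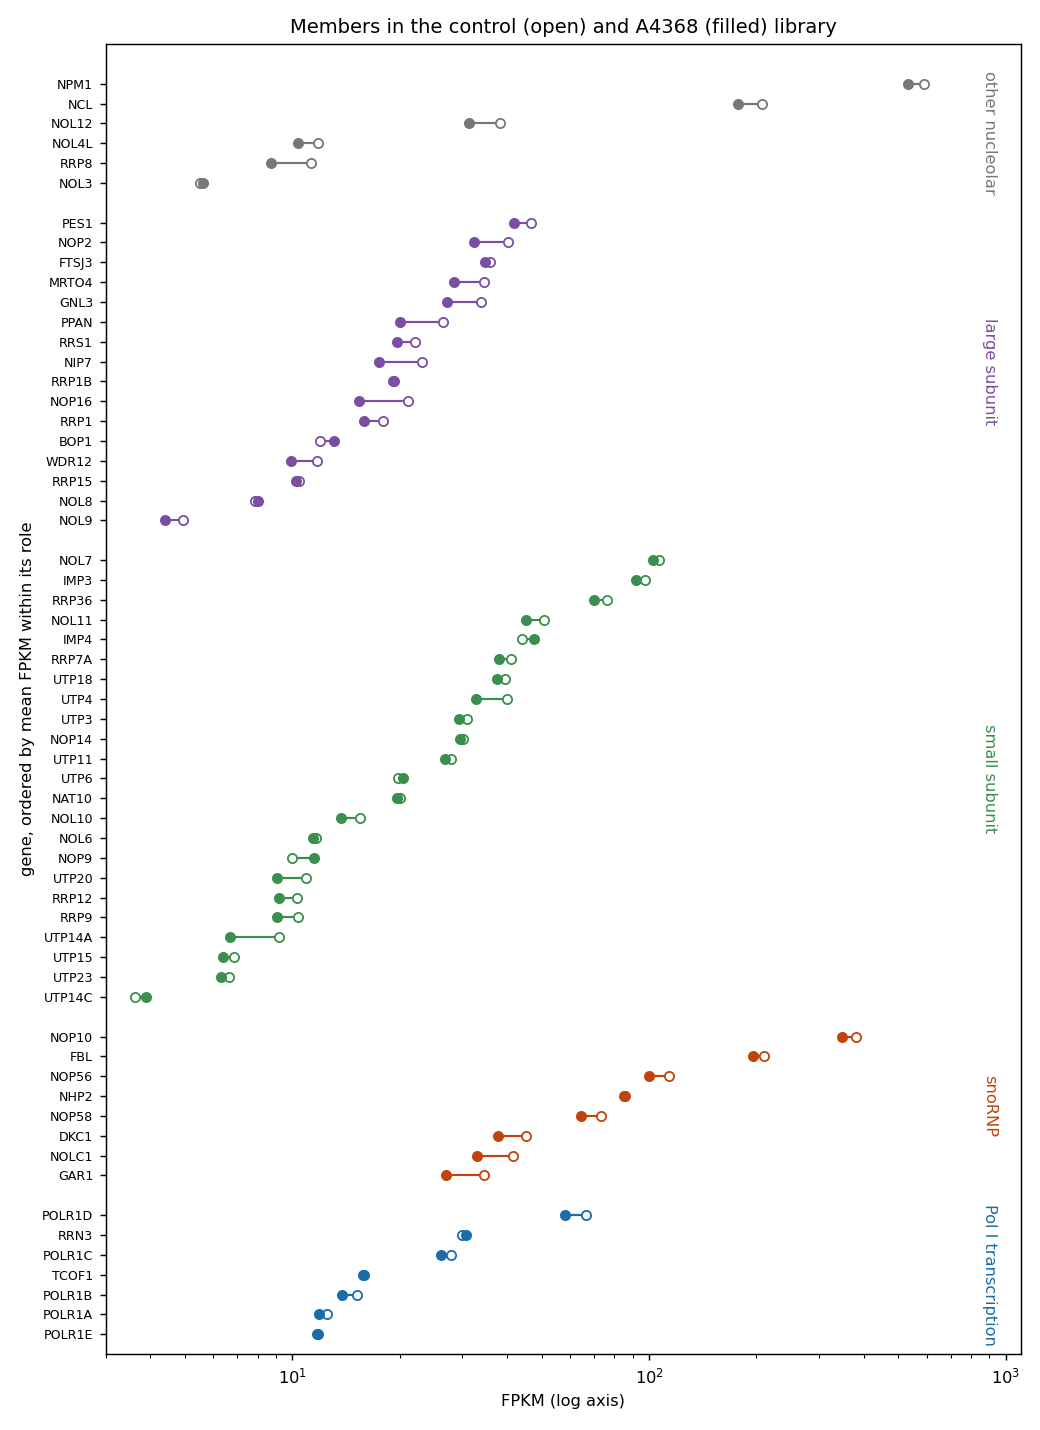
FPKM of each of the 60 genes (log axis) in the control library (open circles) and the A4368 library (filled circles), 1 library each, grouped by role and ordered by mean. Most filled circles lie to the left of their open partners, from UTP14C at 3.62 and 3.90 FPKM, an exception, to NPM1 at 590 and 531 FPKM.

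Most of the group was slightly lower with A4368. On the scale log2((A4368 FPKM + 1)/(control FPKM + 1)), here called the log2 ratio, 50 of 60 genes lay below 0 (83.3%), against 48% of all 11238 kept genes. Their median log2 ratio was -0.13, against 0.01 over all kept genes. A rescaling that made the summed FPKM of both libraries equal, leaving out the 50 most abundant genes, moved the ratios slightly upward. On that scale 43 of 60 lay below 0 (71.7%), against 39.1% of all kept genes, and the group's median was -0.08 against 0.06. The genes whose direction turned with the rescaling were FTSJ3, NAT10, NOL6, NOP14, RRP15, RRP1B and TCOF1, all within 0.05 log2 units of 0 on the deposited scale.

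The differences were small. The limit of 1.2-fold on the log2 ratio scale was chosen with earlier results of these data known. It was passed downward by 12 genes (20%), against 11.1% of all kept genes, and upward by 0 genes, against 11.2%. After the rescaling 7 of the 60 passed it downward (11.7%), against 8.50% of all kept genes, and 0 passed it upward, against 15.2%. No gene of the group reached 1.5-fold in either direction, a limit that 2.12% of all kept genes passed downward and 1.08% upward.

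The direction of the log2 ratios varied with level. Of all kept genes, 45.4% were lower at 1 to 5 FPKM, 41.6% at 5 to 20 FPKM and 51.4% at 20 to 100 FPKM. At 1 to 5 FPKM there were 2 members, of which 1 was lower, and 0 passed 1.2-fold. Among genes with a mean of 20 to 100 FPKM, 9 of 28 members were at least 1.2-fold lower (32.1%), against 9.14% of all 3447 genes at that level. At 5 to 20 FPKM the same limit was passed by 3 of 24 members (12.5%), against 10.1% of all genes there. At 100 FPKM or more all 6 members were lower, none by 1.2-fold, in a level class where 73.0% of all 921 genes were lower and the median was -0.07.

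**Figure D2:**
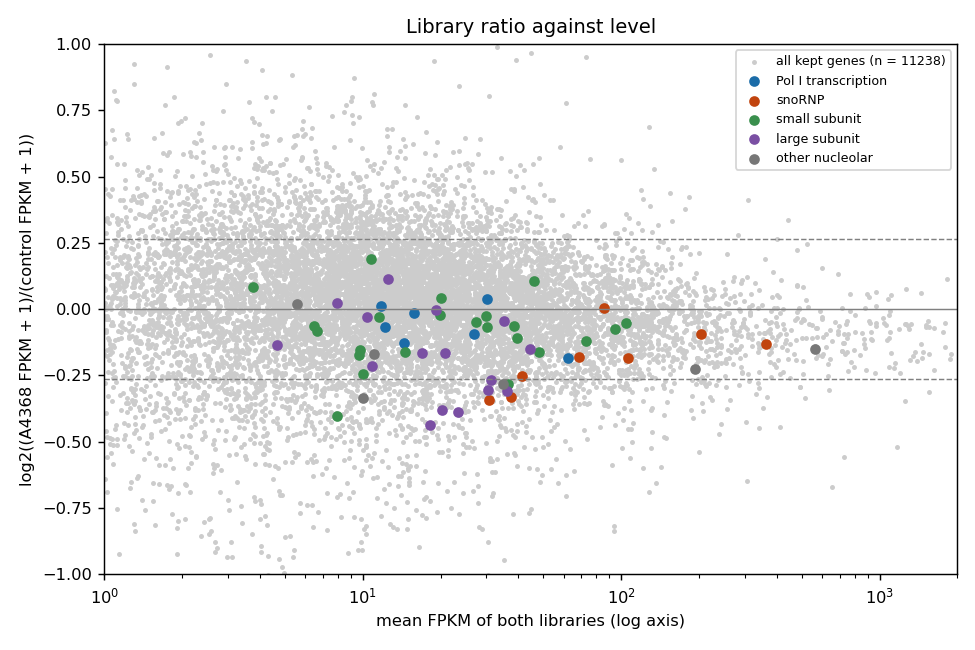
Log2 ratio of each gene against its mean FPKM (log axis) for all 11238 kept genes (grey) and the 60 genes coloured by role. Dashed lines mark 1.2-fold; 80 genes of the table lie outside the axes. The 12 genes under the lower line have means between 7.93 and 37.3 FPKM, and the 6 genes at 100 FPKM or more lie between the lower line and 0.

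RNA polymerase I and its initiation factors showed the smallest differences among the roles, together with the small subunit factors chosen by symbol. Of 7 genes, 5 were lower (4 after the rescaling), none past 1.2-fold, with a median of -0.07. The catalytic core subunit genes POLR1A and POLR1B were at 12.5 and 15.2 FPKM untreated and at 11.9 and 13.8 FPKM treated. POLR1D, whose product is shared with RNA polymerase III, had the lowest log2 ratio of these, -0.19, and was the most abundant at 66.4 FPKM untreated and 58.3 FPKM treated. Its partner in that shared pair, POLR1C, was 1.07-fold lower at 27.9 and 26.1 FPKM.

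The remaining genes of this step were nearly level between the libraries. POLR1E, a subunit particular to the first polymerase, stood at 11.7 FPKM untreated and 11.8 FPKM treated. RRN3, which recruits the polymerase to the ribosomal DNA promoter, stood at 29.96 and 30.8 FPKM, and 29.5% of its sequence words of 31 bases also occur in other genes, most in the pseudogene RRN3P2. TCOF1, which encodes treacle, a nucleolar protein that supports ribosomal DNA transcription, was at 15.9 and 15.8 FPKM.

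The snoRNP genes were among the more abundant and the lower ones. Of 8 genes, 7 were lower on both scales, with a median log2 ratio of -0.18, or -0.13 after the rescaling. The 1.2-fold limit was passed downward by 2 (25.0%), against 11.1% of all kept genes. The box C/D particle, which methylates ribosomal RNA, was lower in all 3 of its genes here. FBL, its methyltransferase, was at 210 FPKM untreated and 196 FPKM treated. Its scaffold genes NOP56 and NOP58 had nearly the same log2 ratio, -0.18 each, at 113 and 73.2 FPKM untreated and 99.7 and 64.4 FPKM treated.

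The box H/ACA particle, which makes pseudouridine and is also part of telomerase, was less even. GAR1, a subunit that binds the enzyme, was 1.28-fold lower, at 34.5 FPKM untreated and 27.0 FPKM treated. DKC1, the pseudouridine synthase itself, was 1.197-fold lower as a plain ratio of 45.1 to 37.7 FPKM, just under the limit, and did not reach it on the log2 ratio scale either. NOP10, the most abundant snoRNP gene, was at 381 and 348 FPKM. NHP2 was level, at 85.3 FPKM untreated and 85.5 FPKM treated, and shares 33.2% of its sequence words with other genes. The log2 ratios of this 4-gene particle thus ran from -0.34 to 0.00354.

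NOLC1, a phosphoprotein gene that acts as a chaperone for both kinds of snoRNP, was the other gene past the limit. It was 1.27-fold lower, at 41.7 FPKM untreated and 32.9 FPKM treated.

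Among the genes chosen by symbol, factors of the small subunit formed the largest group and differed little. Of 23 genes, 19 were lower (16 after the rescaling), with a median of -0.07. The 1.2-fold limit was passed downward by 2 (8.70%), below the 11.1% of all kept genes. After the rescaling 1 passed it, against 8.50% of all kept genes. UTP14A, a cofactor of a helicase in the processome, was 1.37-fold lower at 9.17 and 6.69 FPKM. Its retrotransposed copy UTP14C was at 3.62 FPKM untreated and 3.90 FPKM treated. UTP14C shares 74.6% of its words with other genes, mostly ALG11, so its value is uncertain, while UTP14A shares 13.5%, most with UTP14C.

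UTP4, a subunit of the complex that binds the nascent precursor first, was the second gene past the limit, 1.22-fold lower at 40.1 and 32.8 FPKM. Of other genes of that complex among the 60, NOL11 was 1.12-fold lower at 50.7 and 45.1 FPKM, and UTP15 1.07-fold lower at 6.85 and 6.42 FPKM. WDR43, a further subunit that lies outside the symbol rule and was picked after its value was seen, was 1.27-fold lower at 23.5 and 18.5 FPKM. UTP20, which encodes a very large processome protein, was 1.21-fold lower as a plain ratio of 10.9 to 9.06 FPKM and did not reach the limit with the pseudocount of 1. The processome and precursor-binding genes UTP18, UTP3, UTP11, UTP23, NOL6 and NOP14 differed by less than 1.1-fold.

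The U3 snoRNP, a box C/D particle, pairs with the precursor to start its cleavage. Besides the core genes FBL, NOP56 and NOP58, which were all lower, the genes for its associated proteins RRP9, IMP3 and IMP4 are among the 60, and their ratios differed in direction. RRP9 was 1.14-fold lower at 10.3 and 9.06 FPKM. IMP3 was 1.05-fold lower at 97.1 and 92.2 FPKM, with 58.5% of its words shared with other genes. IMP4 was 1.08-fold higher, at 44.1 FPKM untreated and 47.5 FPKM treated.

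RRP12, known for a part in pre-ribosome export, and NOL10 were each 1.13-fold lower, with RRP12 at 10.3 and 9.16 FPKM and NOL10 at 15.5 and 13.7 FPKM. RRP36 was 1.09-fold lower at 76.3 and 70.0 FPKM. RRP7A was 1.08-fold lower at 41.1 and 38.0 FPKM, and 37.8% of its words are shared, most with the pseudogene RRP7BP. NOL7, the most abundant of the small subunit group, was at 106 FPKM untreated and 103 FPKM treated.

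NOP9 had the highest log2 ratio of all 60 genes, 0.19, at 9.99 FPKM untreated and 11.5 FPKM treated, and shares 33.2% of its words with other genes, most with CIDEB. UTP6 was also higher, by 1.03-fold, at 19.8 and 20.5 FPKM. The gene NAT10, whose product acetylates small subunit RNA, was nearly level at 20.1 and 19.7 FPKM.

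Factors of the large subunit held the most genes past the limit. Of 16 genes, 14 were lower (11 after the rescaling) and 6 passed 1.2-fold (3 after it), with a median log2 ratio of -0.17. NOP16 was the lowest of all 60 genes, 1.38-fold lower at 21.1 FPKM untreated and 15.4 FPKM treated. NIP7, which binds pre-ribosomal RNA, was 1.32-fold lower at 23.1 and 17.5 FPKM, with 23.8% of its words shared, most with COG8. PPAN, an early large subunit assembly factor, was 1.33-fold lower at 26.5 and 20.02 FPKM, and 56.6% of its words are shared, most with the readthrough transcript PPAN-P2RY11.

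The other 3 passed the limit on the deposited scale but not after the rescaling. NOP2, a cytosine methyltransferase of large subunit RNA, was 1.25-fold lower at 40.2 and 32.3 FPKM, with 53.5% of its words shared, most with AC006064.6. GNL3, which encodes the nucleolar GTPase nucleostemin, was 1.24-fold lower at 33.8 and 27.2 FPKM. MRTO4, related to the stalk protein P0 whose place it holds during assembly, was 1.21-fold lower at 34.4 and 28.4 FPKM. After the rescaling their log2 ratios were -0.26, -0.26 and -0.22.

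The complex of PES1, BOP1 and WDR12, needed for processing of the large subunit precursor, was split. WDR12 was 1.18-fold lower at 11.7 and 9.95 FPKM and PES1 was 1.11-fold lower at 46.7 and 42.0 FPKM. BOP1 was 1.09-fold higher, at 11.99 FPKM untreated and 13.1 FPKM treated, the highest log2 ratio of the large subunit group.

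RRS1, which helps to bring the small ribosomal RNA particle into the large subunit, was 1.13-fold lower at 22.1 and 19.6 FPKM. RRP1 was also 1.13-fold lower, at 17.9 and 15.9 FPKM, while its paralogue RRP1B stood at 19.2 FPKM in both libraries. NOL9, a polynucleotide kinase of precursor processing, was 1.12-fold lower at 4.93 and 4.40 FPKM. FTSJ3, a ribosomal RNA methyltransferase gene, RRP15 and NOL8 differed by less than 1.04-fold.

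The last 6 genes were grouped as other nucleolar genes and were not assigned to 1 of these steps. NPM1, the most abundant gene of the 60 and a histone and pre-ribosome chaperone, was 1.11-fold lower at 590 FPKM untreated and 531 FPKM treated, with 23.3% of its words shared, mostly with processed pseudogenes such as NPM1P27. NCL, which binds the ribosomal precursor, was 1.17-fold lower at 207 and 177 FPKM. RRP8, which encodes nucleomethylin, was 1.29-fold lower at 11.3 and 8.73 FPKM. NOL12 was 1.22-fold lower at 38.3 and 31.2 FPKM, with 25.0% of its words shared, most with Z83844.1. RRP8 and NOL12 both passed the limit as deposited, NOL12 not after the rescaling and neither with a pseudocount of 5.

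The symbol rule also took in genes that do not act in ribosome assembly. NOL3 encodes an inhibitor of apoptosis, not an assembly factor, and stood at 5.52 FPKM untreated and 5.62 FPKM treated. NOL4L was 1.14-fold lower at 11.8 and 10.4 FPKM.

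**Figure D3:**
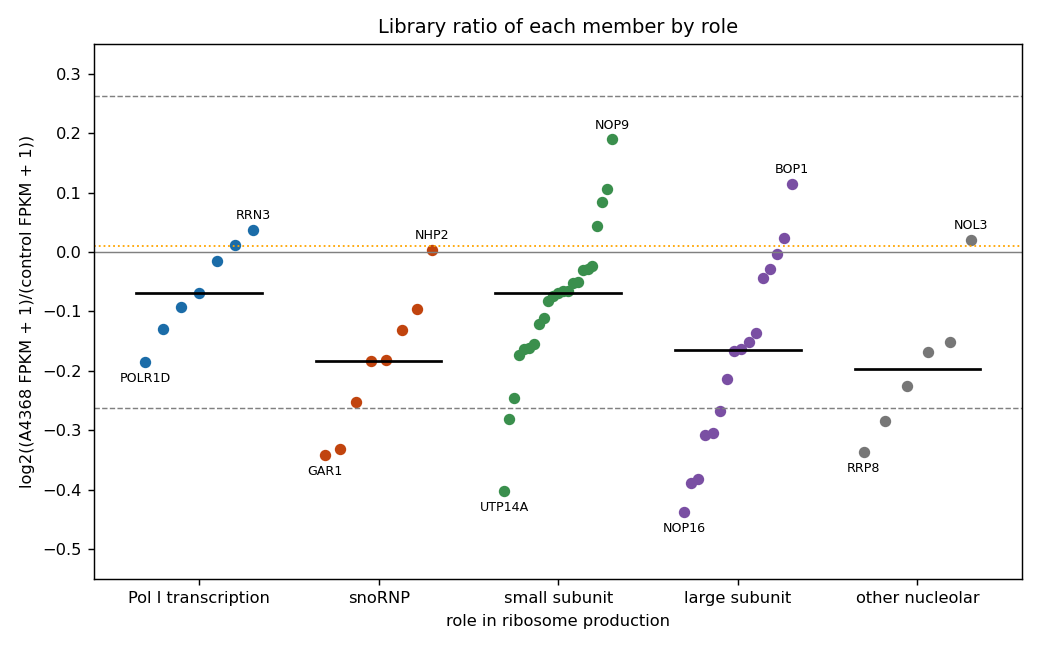
Log2 ratio of each of the 60 genes, by role. Black bars are role medians, dashed lines mark 1.2-fold and the dotted line is the median of all kept genes, 0.01. The medians lie at -0.07 for polymerase I and the small subunit and between -0.17 and -0.20 for the snoRNP, large subunit and other nucleolar genes, and no gene lies above the upper dashed line.

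Several of the genes carry snoRNA genes within their span, so that a single transcript yields both a message and guide RNAs. In GENCODE release 29, 8 of the 60 hold at least 1 snoRNA gene on their strand (13.3%), against 1.87% of the kept genes that matched a protein-coding gene. They are NOP56 and GNL3 with 5 each, NOP58 with 4, NCL with 3, DKC1 and PPAN with 2, and NOL11 and POLR1C with 1. All 8 were lower, with a median log2 ratio of -0.20, while 42 of the other 52 were lower with a median of -0.10. Over the whole table, 125 of 204 such host genes were lower, with a median of -0.04.

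Genes with and without the E-box overlapped in their ratios. The 18 genes with CACGTG had a median log2 ratio of -0.14 and a range from -0.40 to 0.11, and the 32 without it had a median of -0.13 and a range from -0.44 to 0.19. Among the 11 genes at least 1.2-fold lower that had a window, 6 held the motif (54.5%), and among the other 39 it was found in 12 (30.8%). Over all kept genes the medians with and without the motif were -0.01 and 0.01. A match to these letters is a description of the sequence and shows no binding.

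The rest of the pathway was read from lists of factors outside the symbol rule, 125 genes in all. Of these, 85 were lower (68.0%), and 80 on the rescaled values, against 48% and 39.1% of all kept genes. On the deposited scale 20 were at least 1.2-fold lower (16.0%), against 11.1% of all kept genes, and the median log2 ratio was -0.10. At least 1.2-fold higher were 2 (1.60%), against 11.2%. After the rescaling 13 were past the limit downward and 4 upward, with a median of -0.05. Of all kept genes, 8.50% and 15.2% were past it on that scale. The small subunit list had 29 of 39 lower and 9 past the limit downward (23.1%), counting UTP4. The large subunit list had 33 of 42 lower and 9 past it (21.4%). Median log2 ratios were -0.14 for the small and -0.11 for the large subunit list, or -0.095 and -0.062 after the rescaling. The smaller difference of the small subunit factors chosen by symbol, against those of the large subunit, was thus not seen in these lists. No gene of either list passed the limit upward on the log2 ratio scale as deposited, and 1 of the large subunit list did after the rescaling.

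Examples from these lists lay at the same size as the lowest of the 60. LTV1, a factor of late small subunit maturation, was 1.40-fold lower at 29.1 and 20.8 FPKM, with 32.1% of its words shared with other genes. PAK1IP1 and MYBBP1A, listed with the large subunit factors, were 1.38-fold and 1.37-fold lower, PAK1IP1 at 41.0 and 29.8 FPKM and MYBBP1A at 23.6 and 17.2 FPKM. The highest log2 ratios were those of TBL3, at 19.98 FPKM untreated and 23.2 FPKM treated, and of the helicase gene DDX51, which was 1.21-fold higher as a plain ratio at 3.96 and 4.80 FPKM but did not reach the limit with the pseudocount of 1. PWP2 was listed at 5.74 and 0.00164 FPKM, the lowest log2 ratio of these lists, but 91.8% of its words occur in the annotated copy FP565260.1, so the value cannot be read as that of 1 gene.

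Of the other parts of the pathway, the polymerase I and exosome lists lay closer to the whole table, and the snoRNP list did not. Of 17 further polymerase I factors and shared subunits, 7 were lower on both scales. The topoisomerase gene TOP1 was 1.28-fold lower and TAF1A, a subunit of the promoter selectivity factor, 1.26-fold lower, while TAF1C of the same factor was 1.28-fold higher at 9.13 and 11.7 FPKM. Among 13 genes of snoRNP structure and assembly, 9 were lower (69.2%), with a median log2 ratio of -0.10, or -0.05 after the rescaling. In either direction 0 passed 1.2-fold, against 11.1% of all kept genes downward and 11.2% upward. The lowest were COIL, which encodes the Cajal body protein coilin, 1.16-fold lower, and the member RRP9, and the highest was RPAP3 at 18.6 FPKM untreated and 21.1 FPKM treated.

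The exosome and its partners, which trim precursor ends, had 9 of 16 genes lower, or 8 after the rescaling, and a median that changed sign between the scales (-0.03 and 0.02). The subunit genes EXOSC9 and EXOSC7 were 1.22-fold and 1.19-fold lower, and C1D was 1.29-fold higher at 29.7 and 38.2 FPKM.

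**Figure D4:**
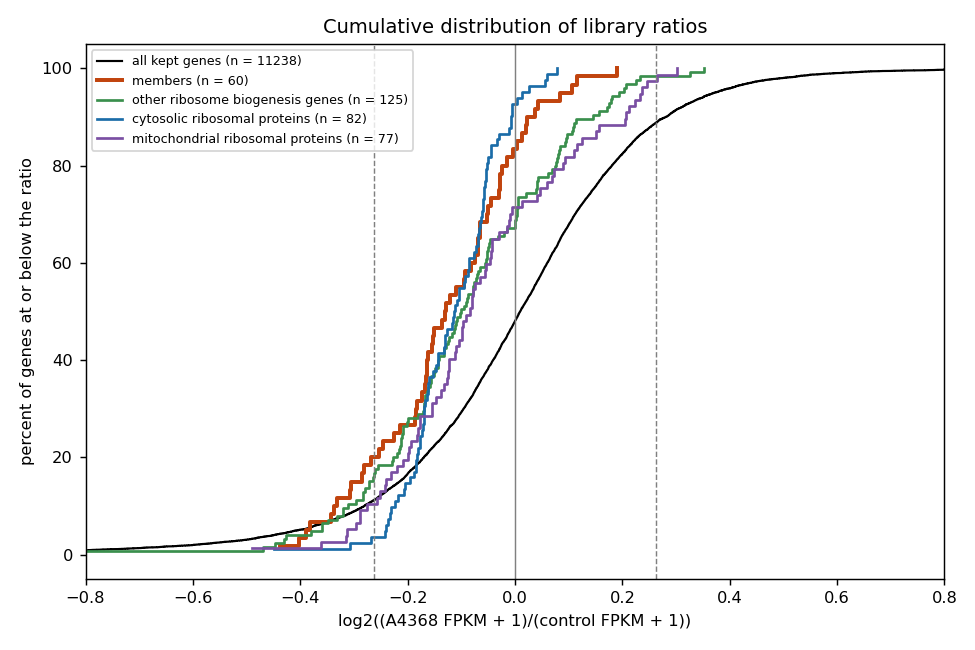
Cumulative percent of genes at or below each log2 ratio, for all 11238 kept genes, the 60 genes, 125 other ribosome biogenesis genes, and cytosolic (82) and mitochondrial (77) ribosomal protein genes. Dashed lines mark 1.2-fold. The curves of the 4 gene groups cross 0 between 68.0% and 92.7%, against 48% for all kept genes, and that of the 60 genes is highest at the lower dashed line, at 20%.

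Ribosomal protein genes, whose products these factors assemble in the case of the cytosolic set, had medians below 0 on both scales. Of 82 cytosolic ribosomal protein genes, 76 were lower (92.7%), and 67 on the rescaled values. Their median was -0.11, and 3 passed 1.2-fold downward (3.66%), against 11.1% of all kept genes. Their median level of 932 FPKM falls in the class where most genes of the table were lower. Of 77 mitochondrial ribosomal protein genes, 55 were lower, and 46 on the rescaled values. Their median was -0.08, and 8 passed the limit downward (10.4%), near the 11.1% of all kept genes. No test of the difference between these groups was possible with 1 library per condition.

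Regulators of the pathway differed in direction. MYC itself was 1.08-fold lower, at 65.1 FPKM untreated and 60.2 FPKM treated, and its partner MAX was at 16.2 and 16.6 FPKM. MYCL, a related factor, was low at 1.86 and 1.65 FPKM, and MLX, the MAX-like partner gene, was 1.13-fold lower at 38.6 and 34.1 FPKM. MXD3 and MXD4, which encode antagonists that compete with MYC for MAX, were 1.38-fold and 1.18-fold higher, MXD3 at 14.4 and 19.8 FPKM and MXD4 at 43.5 and 51.4 FPKM. MXD3 shares 37.8% of its words with other genes, most with PRELID1.

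The other members of that network were closer to level. The antagonist gene MXD1 was at 5.47 FPKM untreated and 6.02 FPKM treated, and MXI1 at 2.67 and 2.51 FPKM. MNT and MGA, which encode further MAX partners, were at 5.62 and 5.58 FPKM and at 7.94 and 8.01 FPKM, and ZBTB17, a partner of MYC in repression, at 9.96 and 10.2 FPKM. Of the 11 genes of this list with values, 5 were lower, or 4 after the rescaling.

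When ribosome assembly is disturbed, free ribosomal proteins are known to bind the ubiquitin ligase MDM2. MDM2 was 1.16-fold higher at 11.7 and 13.7 FPKM and MDM4 was at 6.57 and 6.91 FPKM. CDKN1A, a cell cycle inhibitor gene, was 1.76-fold higher at 6.56 and 11.6 FPKM. Whether these differences have to do with that binding was not tested.

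The ribosomal protein genes of that checkpoint were lower. RPL11 was 1.17-fold lower at 1221 and 1046 FPKM and RPL5 was 1.09-fold lower at 757 and 693 FPKM. CDKN2A, whose locus also encodes the MDM2 inhibitor ARF, was 1.06-fold lower at 93.4 and 88.1 FPKM.

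Base composition and transcript length were read from the longest GENCODE transcript of 97.4% of the kept genes. The 60 genes had a median GC content of 48.5%, against 47.8% over all, and a median length of 3059 bases, against 3664. In each of 4 equal classes of GC content the median log2 ratio of the 60 genes was below 0, from -0.08 to -0.15, where the medians of all genes ran from -0.01 to 0.03. In 4 classes of length the 60 genes had medians from -0.08 to -0.16, against -0.03 to 0.03 for all genes.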

How the data were processed

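RNA-seq of 1 untreated and 1 A4368-treated Hep3B culture was used. Build hg19 and the tools Cufflinks, Bowtie2 2.2.3 and TopHat2 2.0.12 come from the submitters' processing notes. The values deposited by the authors carry no unit in the header, are not whole numbers, and were read as FPKM estimated by Cufflinks from the aligned fragments. No source used here gives the annotation or how low genes were removed. Cufflinks divides reads between overlapping or near-identical genes by likelihood, so values of genes that share sequence are uncertain.

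The table has 24302 lines; 11511 carry a symbol with values, and 11238 had a mean of at least 1 FPKM. Log2 ratios used a pseudocount of 1, which understates the change of low genes. Folds in words are plain ratios of FPKM. No test was possible with 1 library per group. The members, all lists and the 1.2-fold limit were chosen with earlier results of these data known. Any of the 60 genes could be named; from the other lists, the 2 lowest and the highest log2 ratio of each pathway list and the regulators with values were taken, of which 1 is not reported here. EFTUD1 and MYCN had no matched value. Shared sequence is the share (in percent) of the different 31-base words in a gene's GENCODE release 29 transcripts that also occur, in either orientation, in those of other genes. Promoters came from RefSeq (GRCh38.p14), not the hg19 of the notes, and were joined by symbol. The counting was tested on simulated data with planted differences larger than that of any of the 60 genes. That test does not bear on differences of the size found here. Alternatives were other pseudocounts, filters, scalings and fold limits. Python 3.11.15, numpy 2.4.6, pandas 2.3.3 and matplotlib 3.10.9 were used.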

Additional observations from a re-analysis of the deposited data

How the results depend on the processing

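The number of genes at least 1.2-fold lower, 12 of 60, was 7 after the rescaling, 0 at a 1.5-fold limit and 28 at a 1.1-fold limit, where 1 gene was higher. It lay between 8 and 13 under the other pseudocounts, filters and centring, and was 10 of 56 without the 4 genes of which 50% or more of the sequence is shared (chosen after seeing the data, as was a filter of 10 FPKM, which gave 11 of 50). The median log2 ratio stayed between -0.13 and -0.08 under these settings. Among the pseudocounts, filters and scalings run, UTP20 passed the 1.2-fold limit only with a pseudocount of 0.1. With a pseudocount of 5, MRTO4, NOL12, RRP8 and UTP4 no longer passed it. No gene past the limit changed direction under the pseudocounts, filters or scalings run. The unknown depth and the lack of replicates limit all values: the spread between untreated cultures was not measured.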
